A study of Mus musculus with 2 samples.

Results

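The 10 genes described here concern glucose and fructose use in immune and retinal cells of mouse eyes with glaucoma: the hypoxia regulator Hif1a, the hexose transporters Slc2a1 and Slc2a5, and the 7 glycolytic enzymes Aldoa, Tpi1, Gapdh, Pgk1, Eno1, Pkm and Ldha. They were taken by name, and all 10 of 10 were among the 17683 genes listed in the single-cell counts. The cells came from retinas of B6 mice with glaucoma induced by microbeads, which block the outflow of fluid from the eye and raise its pressure. The Igfbpl1 group was treated with Igfbpl1, an insulin-like growth factor binding protein-like protein, and the PBS group received PBS, phosphate-buffered saline. Dose, route and timing of the treatment are not stated by the labels. Each group was 1 library pooled from 10 mice aged 8 to 10 months. In both groups mice were perfused with saline, retinas were digested with collagenase/dispase, papain and DNase at 37 °C, and cells stained for CD45, a surface protein of immune cells, were sorted and prepared with a 10x 3′ kit. No uninjured retina was analysed here. With 1 library a group there is no replicate error and no test. Intervals in the text are exact 95% intervals that cover counting error only, and every ratio of Igfbpl1 over PBS compares these libraries and not the treatments.

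Glycolysis splits glucose into pyruvate in the cytosol and yields ATP without oxygen. Lactate dehydrogenase turns pyruvate into lactate and restores the NAD+ that the pathway consumes. HIF-1, made of the HIF-1α protein encoded by Hif1a and its partner ARNT, binds DNA at a short core motif and switches on transporters and enzymes of this pathway when oxygen is low, and in activated myeloid cells and T cells also without hypoxia. HIF-1α is controlled mainly by breakdown of the protein, so its mRNA level does not report its activity. GLUT1, encoded by Slc2a1, carries glucose into most cells. GLUT5, encoded by Slc2a5, carries fructose, and in the brain it is known as a protein of microglia. Photoreceptors of the retina convert much of their glucose to lactate even with oxygen present.

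Slc2a5 lies on the plus strand at chr4:150119283-150144169 (mm10, GENCODE M21), 92.6 kb before Eno1 at chr4:150236721-150248879, with 3 annotated genes between them. Slc2a1 lies on the same chromosome at chr4:119108711-119137983, and Hif1a at chr12:73901375-73947530. Gapdh and Tpi1 are on chromosome 6, Aldoa and Ldha on chromosome 7, Pkm on chromosome 9 and Pgk1 on chromosome X. HIF-1 is known to bind a core motif in more than 1 form, among them ACGTG. Both strands of the 250 bases before each annotated start were searched for ACGTG alone, which reads as CACGT on the other strand. CACGTG holds both and counts as 2 overlapping matches. The windows are from RefSeq, build GRCm38.p6, which had windows for 10 of 10 genes. The motif was in 16.6% of all 32851 windows of this length. It was in 7 of the 16 windows of these genes, of which 2 are overlapping Aldoa windows that hold the same match. At least 1 window held it for 6 of the 10 genes (Hif1a, Slc2a1, Ldha, Pkm, Aldoa and Pgk1). Some genes have several windows, and the share of all genes with a match was not counted. No window of Slc2a5, Gapdh, Eno1 or Tpi1 held these letters. The form GCGTG was not searched, so these genes are not shown to lack the core. A match describes the sequence and is not evidence of binding. The windows of 4 genes are shown, all on the plus strand and read 5′ to 3′ towards the start, with matches in capitals: Ldha and Pgk1, the enzymes with the most matches, and the 2 hexose transporters.
Ldha (chr7:46845554-46845803): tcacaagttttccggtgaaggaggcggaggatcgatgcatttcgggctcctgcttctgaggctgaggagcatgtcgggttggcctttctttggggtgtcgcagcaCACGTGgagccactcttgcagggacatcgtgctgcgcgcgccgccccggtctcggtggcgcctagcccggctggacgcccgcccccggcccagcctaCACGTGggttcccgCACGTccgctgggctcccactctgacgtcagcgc
Pgk1 (chrX:106186850-106187099): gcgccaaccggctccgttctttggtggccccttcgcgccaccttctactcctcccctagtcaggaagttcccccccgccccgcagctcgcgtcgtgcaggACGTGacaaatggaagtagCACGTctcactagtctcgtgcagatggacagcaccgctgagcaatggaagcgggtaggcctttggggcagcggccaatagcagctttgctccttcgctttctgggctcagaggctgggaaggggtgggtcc
Slc2a1 (chr4:119108495-119108744): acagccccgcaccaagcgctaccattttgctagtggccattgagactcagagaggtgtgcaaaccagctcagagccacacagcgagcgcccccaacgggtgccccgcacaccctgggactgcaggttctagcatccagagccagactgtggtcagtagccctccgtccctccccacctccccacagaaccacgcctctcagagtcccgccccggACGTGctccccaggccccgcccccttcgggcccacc
Slc2a5 (chr4:150119094-150119343): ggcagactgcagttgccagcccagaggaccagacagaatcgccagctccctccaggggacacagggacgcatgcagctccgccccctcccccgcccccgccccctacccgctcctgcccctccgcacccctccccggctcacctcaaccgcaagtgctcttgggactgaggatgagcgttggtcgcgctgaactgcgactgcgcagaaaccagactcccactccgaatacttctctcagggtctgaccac
The Ldha window held 5 matches in 3 stretches, of which 2 are the palindrome CACGTG, the Pgk1 window 2, and the Slc2a1 window 1.

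Sequencing of the Igfbpl1 group gave 3330 cells with 9463631 unique molecular identifiers (UMIs, each 1 counted transcript), at a median of 2355.5 UMIs a cell, and the PBS group gave 1055 cells with 3795008 UMIs, at a median of 3433. The 2 libraries shared 0 cell barcodes. Cells were placed in classes by the UMIs of marker genes, none of them a member, and levels are CPM, a gene's UMIs per 1000000 UMIs of a class in a library. Microglia-like cells numbered 1624 in the Igfbpl1 library (48.8%) and 781 in the PBS library (74.0%). Classes with at least 20 cells in a library gave 17 sums, 12 of immune and 5 of retinal cells. Retinal cells were present under the CD45 sort: 171 cells (5.13%) in the Igfbpl1 library and 83 (7.87%) in the PBS library. Their Ptprc (CD45) level was 64.8 CPM in the Igfbpl1 library and 3.64 CPM in the PBS library, against 667 and 595 CPM in the immune classes of the same libraries. The 10 genes had 15200 UMIs in the Igfbpl1 library and 6214 in the PBS library.

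Slc2a5 UMIs were almost all in microglia-like cells. Its level there was 52.9 CPM (45.9 to 60.7) in the Igfbpl1 library and 129 CPM (116.5 to 143) in the PBS library. Of the other 15 sums, 11 held 0 UMIs, among them B-like cells of both libraries, NK-like cells and every retinal class, and the remaining 4 held 1 to 4 UMIs. The highest of these was 9.0 CPM in T-like cells of the PBS library, which is 1 UMI (interval 0.228 to 50.2 CPM). The Apoe-high MHC class II cells, a macrophage-like class, had 4 UMIs (3.25 CPM, 0.884 to 8.31) in the Igfbpl1 library and 1 UMI (4.0 CPM, 0.101 to 22.3) in the PBS library. Igfbpl1 T-like cells, with 0 UMIs, had an upper limit of 2.83 CPM at 3 counts. After every cell was thinned to 1000 UMIs, a Slc2a5 UMI was found in 5.17% of microglia-like cells of the Igfbpl1 library (4.15% to 6.36%) and in 12.8% of those of the PBS library (10.5% to 15.4%). Without thinning the shares were 11.1% and 32.7%, in the same order of libraries, at median depths of 2060 and 3534 UMIs a cell. In B-like cells the thinned share was 0 of 74 cells in the Igfbpl1 library, which allows up to 4.05%, and 0 of 80 in the PBS library, which allows up to 3.75%.

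Slc2a1 was low and had no such class. Its level was 47.5 CPM (40.9 to 54.9) in Igfbpl1 and 49.4 CPM (41.6 to 58.2) in PBS microglia-like cells. Retinal sums ran between 15.7 and 97.6 CPM and immune sums between 9.69 and 86.5 CPM, so the 2 kinds of cell overlapped. The highest value, in Igfbpl1 Muller glia-like cells, rested on 7 UMIs (97.6 CPM, 39.2 to 201), and every neighbouring pair in the order of levels had overlapping intervals. Among immune classes with 20 or more UMIs, Igfbpl1 NK-like cells stood at 61.6 CPM (39.4 to 91.6), Igfbpl1 T-like cells at 29.2 CPM (19.8 to 41.4) and Igfbpl1 Apoe-low MHC class II cells, which are dendritic-like, at 17.8 CPM (11.8 to 25.7).

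Hif1a was found in each of the 17 sums. The highest levels were in bipolar-like neurons, with 653 CPM (543 to 778) in the Igfbpl1 library and 676 CPM (524 to 859) in the PBS library. The intervals of neighbours in the order overlapped throughout, down to B-like cells of the PBS library at 66.1 CPM (35.2 to 113). Among the immune sums the 4 highest were all of the Igfbpl1 library: T-like cells at 312 CPM, microglia-like cells at 278, Apoe-high MHC class II cells at 264 and B-like cells at 223. The PBS sums of the same 4 classes were at 81.0, 171, 124 and 66.1 CPM, in that order of classes. Each of these 4 classes had more Hif1a in the Igfbpl1 library.

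**Figure D1:**
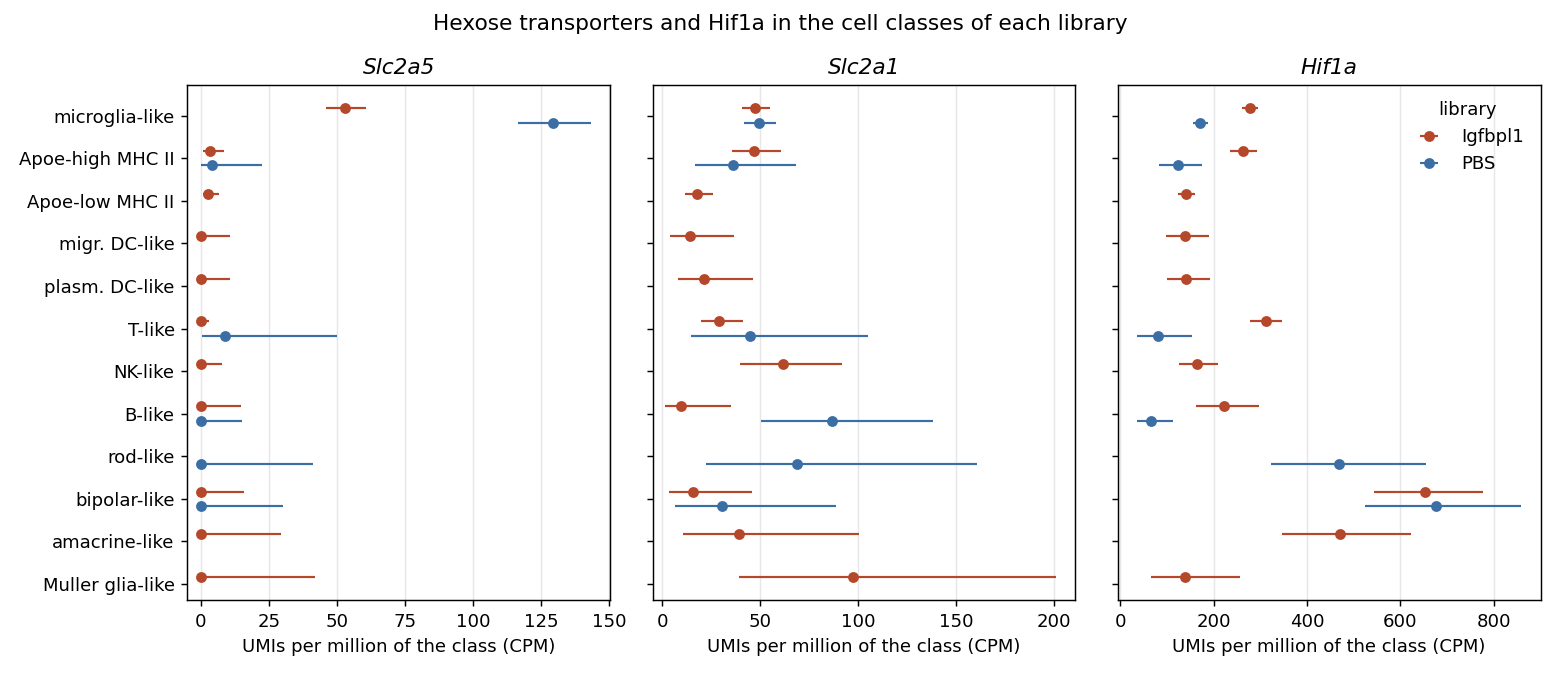
Levels of Slc2a5, Slc2a1 and Hif1a (x axes, CPM of the class) in each cell class with at least 20 cells in a library (y axis), with points for the Igfbpl1 and PBS libraries and bars for exact 95% counting intervals. Slc2a5 stands at 52.9 CPM in Igfbpl1 and 129 CPM in PBS microglia-like cells and at or under 9.0 CPM in every other class.

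The glycolytic enzymes were higher in retinal than in immune cells. For 6 of the 7 enzymes the lowest retinal sum lay above the highest immune sum, Ldha being the exception. The share of all genes with such a separation was not counted, so this is not read as particular to these enzymes. Aldoa, the aldolase that splits fructose bisphosphate, ran between 585 and 2504.5 CPM in retinal sums and between 135 and 394 CPM in immune sums. Tpi1, which interconverts the resulting triose phosphates, ran between 251 and 989 CPM in retinal and between 25.4 and 213 CPM in immune sums. Bipolar-like cells were highest in Tpi1, with 815 CPM in the Igfbpl1 library and 989 CPM in the PBS library, while the rod-like cells of the PBS library had 358 CPM. Gapdh, which makes the first NADH of the pathway, ran between 404 and 1555 CPM in retinal and between 146 and 320 CPM in immune sums. Pgk1, whose step makes ATP, ran between 167 and 510 CPM in retinal sums (509.5 in amacrine-like cells) and between 21.4 and 99.8 CPM in immune sums.

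Of the last 3 steps, Eno1 was highest in Muller glia-like cells, and Pkm and Ldha in rod-like cells. Eno1, the enolase found in most tissues, stood in Igfbpl1 Muller glia-like cells at 1854 CPM (1552 to 2197), from 133 UMIs in 33 cells. The next sum, rod-like cells of the PBS library at 949.5 CPM (739 to 1202), did not overlap it. Immune sums of Eno1 ran between 63.9 and 162 CPM. Pkm, the pyruvate kinase of muscle and most other tissues, was highest in rod-like cells of the PBS library at 1858 CPM (1558 to 2199), without overlap with bipolar-like cells of that library at 858 CPM (685 to 1061). Immune sums of Pkm ran between 88.8 and 246 CPM. Ldha, which makes lactate, was also highest in those rod-like cells at 1032 CPM (812 to 1294), and amacrine-like cells of the Igfbpl1 library had 686 CPM (535 to 867). Below them the 2 kinds of cell mixed, since Igfbpl1 T-like cells at 346.5 CPM (312 to 384) lay above bipolar-like cells at 298 CPM in the Igfbpl1 library and 242 CPM in the PBS library, and above Muller glia-like cells at 209 CPM. Eno1 and Gapdh have near-identical processed copies elsewhere in the genome. The labels do not say how reads that match both a gene and a copy were counted, so these values carry that uncertainty. Gapdh, Tpi1 and Aldoa overlap a gene on the other strand (Iffo1, Spsb2 and Fam57b), and the labels do not say whether the counting used strand.

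Within immune cells, 2 classes of the Igfbpl1 library led most enzymes. Apoe-high MHC class II cells had the highest immune sum of Aldoa, Tpi1, Gapdh, Pgk1 and Pkm, and T-like cells that of Eno1 and Ldha. For every enzyme the interval of the highest immune sum overlapped that of the next immune sum. Eno1 was nearly level, at 162 CPM in T-like and 161 CPM in Apoe-high MHC class II cells of the Igfbpl1 library. Microglia-like cells had the highest immune sum of none of the enzymes, and their Pgk1 stood at 38.9 CPM in the Igfbpl1 and 29.9 CPM in the PBS library. Over all 10 genes, 13 of 160 neighbouring pairs in the order of levels had intervals that did not overlap. Across the 17 sums the levels of the enzymes, as log2 of CPM with 10 added, varied together, with Pearson's r between 0.624 and 0.968 for their 21 pairs. Hif1a had r between 0.496 and 0.864 with the enzymes, Slc2a1 between -0.0911 and 0.429, and Slc2a5 between -0.408 and 0.180 with the other 9 genes. These are descriptions over sums that share their library, its depth and its free RNA. The sums also span the separation of retinal from immune cells given above. Pearson's r was not computed within either kind of cell, and its range over pairs of other genes was not counted. Over the same 17 sums and 3531 genes, the levels most like Slc2a5 were those of Fam102b (r 0.887), Pag1 (0.850) and Olfml3 (0.846), the last a microglia marker used to name the class. Nearest to Slc2a1 were Taf15 (0.807), Scaf11 (0.762) and Kansl1l (0.748), and nearest to Hif1a were Fmn1 (0.880), the glycolytic gene Pgam1 (0.869) and Tpi1 (0.864). Nearest to the mean of the 7 enzymes were Macrod2 (0.959), Pcsk1n (0.954) and Sh3gl2 (0.944).

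**Figure D2:**
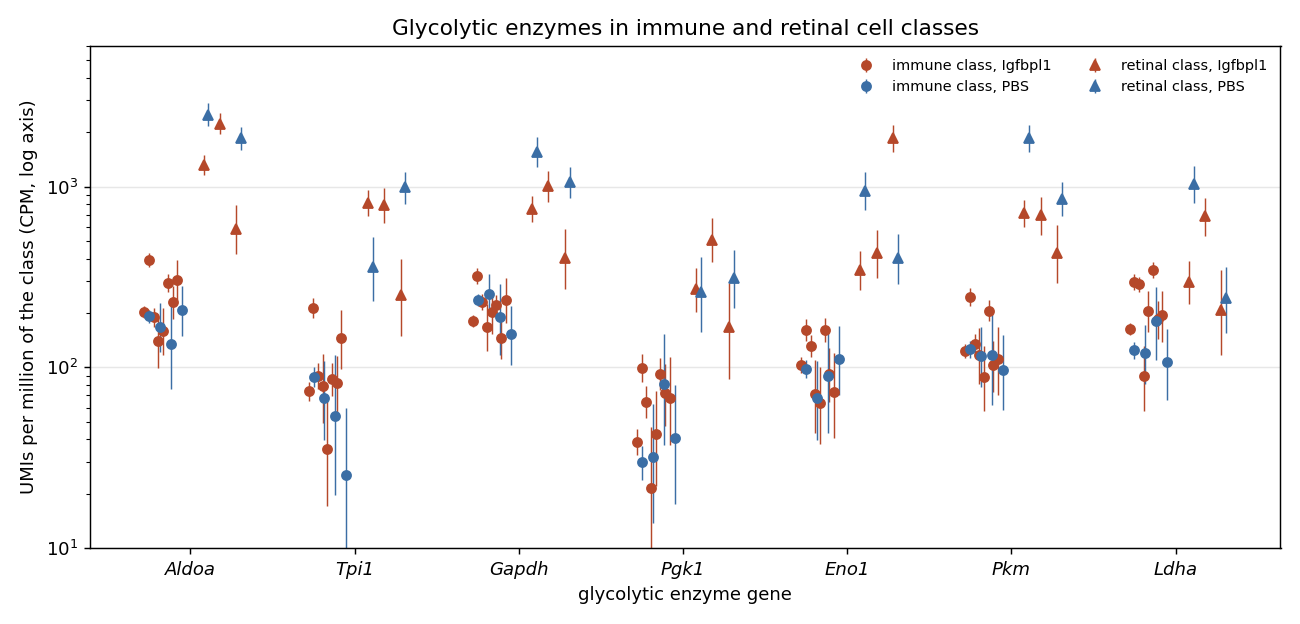
Levels of the 7 glycolytic enzymes (x axis, in pathway order) in CPM of the class (y axis, log scale), with circles for 12 immune sums, triangles for 5 retinal sums, colours for the Igfbpl1 and PBS libraries and bars for exact 95% counting intervals. Retinal points lie above all immune points for 6 of the 7 enzymes, and Ldha is mixed. The share of all genes that do so was not counted.

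In microglia-like cells Slc2a5 was lower and Hif1a higher in the Igfbpl1 library, while the enzymes differed less. Slc2a5, at 52.9 CPM in the Igfbpl1 and 129 CPM in the PBS library, had a ratio of 0.409 (0.343 to 0.487). Hif1a, at 278 CPM (262 to 295) in the Igfbpl1 and 171 CPM (157 to 187) in the PBS library, had a ratio of 1.62 (1.46 to 1.81). A gene was counted as measured at a mean of at least 50 CPM and at least 20 UMIs, and as different at 1.5-fold or more with 10 CPM added to both levels. By this rule Hif1a was the 1 gene higher and Slc2a5 the 1 gene lower of the 8 of 10 that were measured. Among all 3340 genes measured in these cells 3.62% were higher and 5.09% lower, and 1 of 8 each way is not read as a result about these genes as a set. The median log2 ratio was 0.02 over the 8 genes and -0.11 over all genes measured.

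Of the enzymes in microglia-like cells, Ldha was at 163 CPM in the Igfbpl1 and 124 CPM in the PBS library, a ratio of 1.32 (1.15 to 1.502). Gapdh was at 181 CPM in the Igfbpl1 and 237 CPM in the PBS library (ratio 0.764, 0.686 to 0.850), and Tpi1 at 73.7 and 89.0 CPM in the same order (ratio 0.828, 0.697 to 0.984). Thus 1 enzyme had an interval above 1 and 2 had intervals below 1, all within 1.5-fold. Aldoa (203 CPM in Igfbpl1, 192 CPM in PBS cells), Eno1 (103 and 98.0 CPM) and Pkm (124 and 126 CPM) had ratios of 1.06, 1.05 and 0.984, with intervals that include 1 and lie between 0.856 and 1.23. Pgk1 and Slc2a1 stayed under 50 CPM in both libraries, and their ratios were 1.30 (0.992 to 1.72) and 0.962 (0.768 to 1.21).

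Several other features of these cells differed between the libraries beside the 2 genes. The 9 microglia marker genes that named the class had ratios between 0.476 (P2ry13) and 0.985 (Olfml3), with a median of 0.695, and their summed level was 9396 CPM in the Igfbpl1 and 13308 CPM in the PBS library. The ratio of Slc2a5 lay below all 9, and its interval overlapped that of P2ry13 (0.427 to 0.531). Chaperone genes, known to respond to heat and other cell stress, summed to 23002 CPM in Igfbpl1 and 12960 CPM in PBS cells, with none of the 12 at 0 in either library. The 7 rod markers summed to 41.0 CPM in Igfbpl1 and 64.3 CPM in PBS microglia-like cells, genes that microglia are not known to make, and MHC class II genes to 520 and 158 CPM. T cell markers summed to 59.2 CPM in Igfbpl1 and 13.6 CPM in PBS microglia-like cells. Border macrophage markers summed to 36.8 CPM in Igfbpl1 cells, with Lyve1 and Cd163 at 0, and to 103 CPM in PBS cells, with none of the 7 at 0. Their part in the ratios was not tested, apart from these: without cells holding a rod marker UMI, and with mitochondrial, ribosomal and heat shock genes taken out of the totals, Slc2a5 and Hif1a kept their direction and stayed past 1.5-fold.

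Each library held cells with UMIs of Xist, expressed in female cells, and none of 4 Y-linked genes (Xist-only), and cells with the reverse (Y-only). Of the microglia-like cells in either set, Y-only cells made up 43.3% in the Igfbpl1 and 65.5% in the PBS library. The ratio of Slc2a5 was 0.359 (0.253 to 0.506) among Xist-only cells, at 42.5 CPM in the Igfbpl1 and 119 CPM in the PBS library, and 0.459 (0.340 to 0.613) among Y-only cells, at 58.3 and 127 CPM. Hif1a had a ratio of 2.07 (1.68 to 2.55) among Xist-only cells, at 349 CPM in the Igfbpl1 and 169 CPM in the PBS library. Among Y-only cells its ratio was 1.41 (1.19 to 1.68), at 249 and 176 CPM, which is under 1.5-fold. Gapdh had a ratio of 0.995 (0.811 to 1.23) among Xist-only cells and of 0.607 (0.503 to 0.729) among Y-only cells. Slc2a5 was thus lower in Igfbpl1 cells in both sets, while Gapdh was lower in the Y-only set and level in the other, and the difference between the sets was not tested.

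Microglia-like cells were also divided by state, with each cell thinned to 1000 UMIs. Cells with at least 3 UMIs of 12 interferon response genes were called interferon-responsive, and the rest were called quiet at 0, intermediate at 1 to 2 and activated at 3 or more UMIs of Ccl2, a chemokine, and Hmox1, haem oxygenase. The states are ranges of a score: 186 cells of the Igfbpl1 and 65 of the PBS library had 2 such UMIs, just under the limit, and 132 and 22 had 3. Quiet cells numbered 530 in the Igfbpl1 and 505 in the PBS library, and activated cells 479 and 57. Slc2a5 was at 58.2 CPM in quiet, 53.2 in intermediate, 50.7 in activated and 43.2 in interferon-responsive cells of the Igfbpl1 library, and at 148, 102, 93.4 and 70.0 CPM in the same states of the PBS library. Quiet cells had the highest value in both libraries. In the Igfbpl1 library the intervals of all states overlapped, among them quiet (45.6 to 73.1) and interferon-responsive cells (26.0 to 67.4). In the PBS library the interval of quiet cells (131 to 167) overlapped that of activated cells (56.2 to 146) alone. In each state the Igfbpl1 value was below the PBS value.

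The difference in Slc2a5 between the libraries was therefore also seen within states. Its ratio of Igfbpl1 over PBS was 0.392 (0.298 to 0.509) in quiet, 0.523 (0.360 to 0.755) in intermediate and 0.543 (0.319 to 0.966) in activated cells, and 0.616 (0.273 to 1.48) in interferon-responsive cells, where the PBS library had 37 cells and 10 Slc2a5 UMIs. Hif1a was at 268 CPM in quiet, 270 in intermediate, 281 in activated and 318 in interferon-responsive cells of the Igfbpl1 library, and at 170, 163, 221 and 154 CPM in the PBS library. Its ratios were 1.58 (1.35 to 1.85), 1.65 (1.32 to 2.07), 1.27 (0.927 to 1.78) and 2.07 (1.31 to 3.40) in that order of states. Hif1a in the Igfbpl1 library was thus above the PBS library in each state, with an interval that includes 1 in activated cells.

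Between activated and quiet cells of 1 library the genes differed little. In the Igfbpl1 library 0 of the 8 genes measured differed by 1.5-fold, where 1.25% of all 3212 genes measured were higher and 1.25% lower in activated cells. Aldoa was at 164 CPM in activated and 217 CPM in quiet cells (ratio 0.752, 0.621 to 0.909) and Gapdh at 164 and 202 CPM (ratio 0.816, 0.672 to 0.989), the 2 genes with an interval below 1. In the PBS library, where 57 cells were activated, Slc2a1 was the 1 gene higher and Slc2a5 the 1 gene lower of 9 measured, beside 6.13% higher and 6.37% lower of all 3456 genes. Slc2a1 was at 78.6 CPM (16 UMIs) in activated and 43.7 CPM in quiet PBS cells (ratio 1.80, 0.983 to 3.11), and Slc2a5 at 93.4 CPM (19 UMIs) in activated and 148 CPM in quiet PBS cells (ratio 0.629, 0.373 to 1.002). Both intervals include 1, and with states set per 1000 UMIs without thinning Slc2a1 was no longer 1.5-fold higher. In interferon-responsive against quiet cells of the PBS library, 1 of 9 measured genes was higher and 2 were lower, beside 11.4% higher and 9.53% lower of all 3493 genes. Ldha was at 203 CPM in interferon-responsive and 116 CPM in quiet cells (ratio 1.75, 1.15 to 2.60). Eno1 was at 49.0 CPM (7 UMIs) in interferon-responsive and 103 CPM in quiet cells (ratio 0.475, 0.189 to 0.9985), and Slc2a5 at 70.0 CPM (10 UMIs) and 148 CPM (ratio 0.472, 0.224 to 0.881). In the Igfbpl1 library 0 of 8 measured genes differed between these states, beside 5.82% higher and 4.1% lower of all 3246 genes, and Ldha was at 193 CPM in interferon-responsive and 152 CPM in quiet cells (ratio 1.27, 0.971 to 1.65).

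**Figure D3:**
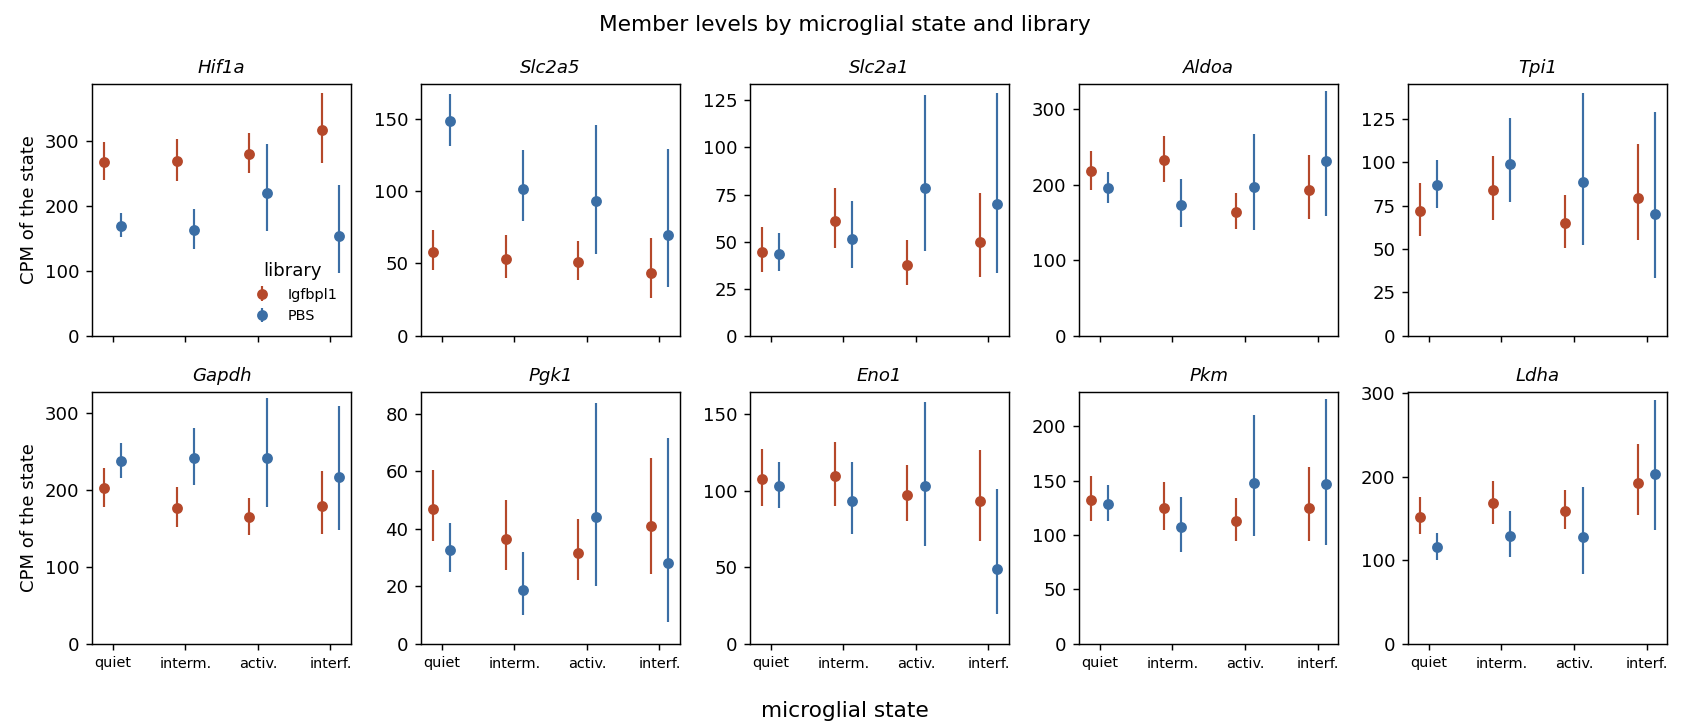
Level of each gene (y axes, CPM of the state) in quiet, intermediate, activated and interferon-responsive microglia-like cells (x axis), with points for the Igfbpl1 and PBS libraries and bars for exact 95% counting intervals. Slc2a5 lies lower in the Igfbpl1 than in the PBS library in all 4 states, with overlapping bars in activated and interferon-responsive cells, and Hif1a lies higher in all 4.

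Outside microglia, Hif1a and most of the measured enzymes were at least 1.5-fold higher in the Igfbpl1 library in macrophage-like and T-like cells, while Gapdh was within 1.5-fold in both. In Apoe-high MHC class II cells (309 in the Igfbpl1 and 56 in the PBS library) 7 of 8 measured genes were at least 1.5-fold higher and 0 lower. Of all 2860 genes measured in these cells 17.7% were higher and 27.9% lower. Tpi1 was at 213 CPM (188 to 241) in the Igfbpl1 and 68.0 CPM (39.6 to 109) in the PBS library, a ratio of 3.14 (1.92 to 5.47). Ldha was at 297 CPM in the Igfbpl1 and 120.0 CPM in the PBS library, a ratio of 2.48 (1.70 to 3.72). Aldoa was at 394 and 168 CPM in the same order (ratio 2.35, 1.71 to 3.30), Hif1a at 264 and 124 CPM (2.13, 1.47 to 3.18) and Pkm at 246 and 116 CPM (2.12, 1.45 to 3.22). The ratios of Pgk1 and Eno1 were 3.12 (1.53 to 7.39, with 8 UMIs in the PBS library) and 2.38 (1.45 to 4.16). Gapdh was the measured gene within 1.5-fold, at 320 CPM in the Igfbpl1 and 256 CPM in the PBS library, a ratio of 1.25 (0.957 to 1.65). All 7 intervals of the genes called higher lay above 1. The median log2 ratio was 1.16 over the 8 genes and -0.18 over all genes measured.

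The makeup of this class differed between the libraries. The 7 border macrophage markers listed, genes of the macrophages of vessels and membranes, summed to 618 CPM in Igfbpl1 cells, with Lyve1 and Cd163 at 0, and to 4491 CPM in PBS cells, with none at 0. Of assigned cells 5.64% in the Igfbpl1 and 53.5% in the PBS library were Y-only. Among cells with border macrophage markers alone, 54 in the Igfbpl1 and 41 in the PBS library, 7 of 8 measured genes were higher, beside 19.6% of all genes. Among Xist-only cells, 184 and 20, it was 8 of 9, Gapdh included, beside 21.1% of all genes. Among cells without border macrophage markers, 255 in the Igfbpl1 and 15 in the PBS library, it was 5 of 9, beside 18% of all genes. In these cells Ldha had a ratio of 2.31 (1.16 to 5.40), and Aldoa and Hif1a had ratios of 1.63 (0.960 to 3.02) and 1.71 (0.884 to 3.78). Tpi1 had a ratio of 12.8 (2.28 to 509) from 1 UMI in the PBS library, and Eno1 2.46 (0.942 to 9.14) from 4 UMIs there. The 15 PBS cells are under the limit of 20 cells set for classes. Gapdh (0.774, 0.5185 to 1.204), Slc2a1 (0.81, 0.297 to 3.08), Pkm (1.46, 0.780 to 3.09) and Pgk1 (1.56, 0.589 to 5.82) were within 1.5-fold there by the rule.

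In T-like cells (331 in the Igfbpl1 and 31 in the PBS library) 6 of 8 measured genes were higher and 0 lower, beside 25.5% higher and 15.6% lower of all 2729 genes. Hif1a was at 312 CPM (279 to 347) in the Igfbpl1 and 81.0 CPM (37.0 to 154, 9 UMIs) in the PBS library, a ratio of 3.85 (2.002 to 8.49). Aldoa, at 294 CPM in the Igfbpl1 and 135 CPM in the PBS library, had a ratio of 2.18 (1.30 to 3.94), and Ldha, at 346.5 and 180.0 CPM, of 1.93 (1.23 to 3.19). Pkm had a ratio of 1.76 (1.01 to 3.36), while the intervals of Eno1 (1.80, 0.955 to 3.82) and Tpi1 (1.60, 0.709 to 4.48) include 1. The MHC class II genes, which T cells of mice do not normally express, summed to 3196 CPM in Igfbpl1 and 18 CPM in PBS T-like cells, with H2-Aa and H2-Ab1 at 0 in the PBS library. Of assigned cells 7 of 229 (3.06%) in the Igfbpl1 and 15 of 18 (83.3%) in the PBS library were Y-only. Chaperone genes summed to 15655 CPM in Igfbpl1 and 8479 CPM in PBS T-like cells. Border macrophage markers summed to 107 CPM in Igfbpl1 T-like cells, with Lyve1, Cd163 and Folr2 at 0, and to 9.0 CPM in PBS T-like cells, with 6 of 7 at 0. The part of these values in the ratios was not tested, and the PBS library had 3 Xist-only T-like cells. In T-like cells that carried no markers of another class, 192 in the Igfbpl1 and 23 in the PBS library, 5 genes were higher of 8 measured, beside 27.8% of all genes, and Hif1a had a ratio of 4.62 (2.20 to 11.7).

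Igfbpl1 T-like cells were not uniform. Its 67 gamma-delta T-like cells had 551 CPM of Hif1a (446.5 to 672), 448 CPM of Ldha (355 to 559), 414 CPM of Aldoa (325 to 521), 375 CPM of Pkm (290 to 477) and 289 CPM of Eno1 (216 to 381). Its 69 T-like cells with CD8 UMIs had 287 CPM of Hif1a (223 to 363), 233 CPM of Ldha (176 to 303), 225 CPM of Aldoa (169 to 293), 99.9 CPM of Pkm (64.0 to 149) and 108 CPM of Eno1 (70.7 to 159). The gamma-delta cells were higher than the CD8 cells in these 5 genes without overlap of the intervals, and the intervals of the other 5 genes overlapped. Its remaining 195 T-like cells had 256 CPM of Hif1a (218 to 298) and 361 CPM of Ldha (316 to 410), of which 28 UMIs of Ldha came from 1 cell. Against these cells the intervals of the gamma-delta cells overlapped in Ldha and Aldoa and not in Hif1a, Pkm and Eno1. The share of all genes without overlap between these T-like subsets was not counted, so this is not read as particular to these genes. Without the gamma-delta cells, Hif1a in T-like cells had a ratio of 3.26 (1.69 to 7.22) over the PBS library and Pkm and Eno1 were within 1.5-fold.

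In B-like cells (74 in the Igfbpl1 and 80 in the PBS library) 5 of 8 measured genes were higher and 0 lower, beside 15.4% higher and 26.2% lower of all 2830 genes. Tpi1 was at 145 CPM (30 UMIs) in the Igfbpl1 and 25.4 CPM (5 UMIs) in the PBS library, a ratio of 5.72 (2.20 to 18.9). Hif1a was at 223 and 66.1 CPM in the same order (ratio 3.37, 1.79 to 6.80). Of the 30 Tpi1 UMIs in Igfbpl1 B-like cells, 9 came from 1 cell, which the interval does not take into account. With B-like cells taken from Leiden clusters 1 gene was higher, and after thinning 2 were. In B-like cells free of other markers, with 44 cells in the Igfbpl1 and 57 in the PBS library, 1 of 5 measured genes was higher, Hif1a at a ratio of 2.18 (0.822 to 5.96), beside 13.6% of all genes. Tpi1 had 4 UMIs in each library there and was not measured (ratio 1.79, 0.333 to 9.58). The makeup of the class differed: B cell markers summed to 8584 CPM in Igfbpl1 and 19969 CPM in PBS B-like cells, with none of the 8 at 0, and of assigned cells 32.4% in the Igfbpl1 and 78.0% in the PBS library were Y-only. T cell markers summed to 87.2 CPM in Igfbpl1 and 0 CPM in PBS B-like cells. Border macrophage markers summed to 315 CPM in Igfbpl1 and 0 CPM in PBS B-like cells, where a sum of 0 allows up to 15.3 CPM. The part of these values in the ratios was not tested. Slc2a1 went the other way in B-like cells, with 2 UMIs (9.69 CPM) in the Igfbpl1 and 17 UMIs (86.5 CPM) in the PBS library, a ratio of 0.112 (0.0126 to 0.472), below the limit for a measured gene.

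In bipolar-like neurons (94 in the Igfbpl1 and 24 in the PBS library) 0 of 8 measured genes differed by 1.5-fold, where 14.3% of all 2839 genes were higher and 11.4% lower. Aldoa was at 1321 CPM in the Igfbpl1 and 1857 CPM in the PBS library, a ratio of 0.712 (0.586 to 0.865). Gapdh was at 752 and 1060 CPM in the same order, a ratio of 0.710 (0.548 to 0.922), and Hif1a at 653 and 676 CPM, a ratio of 0.965 (0.712 to 1.32). Bipolar-like cells thus had 2 enzymes with intervals below 1 and none above it.

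**Figure D4:**
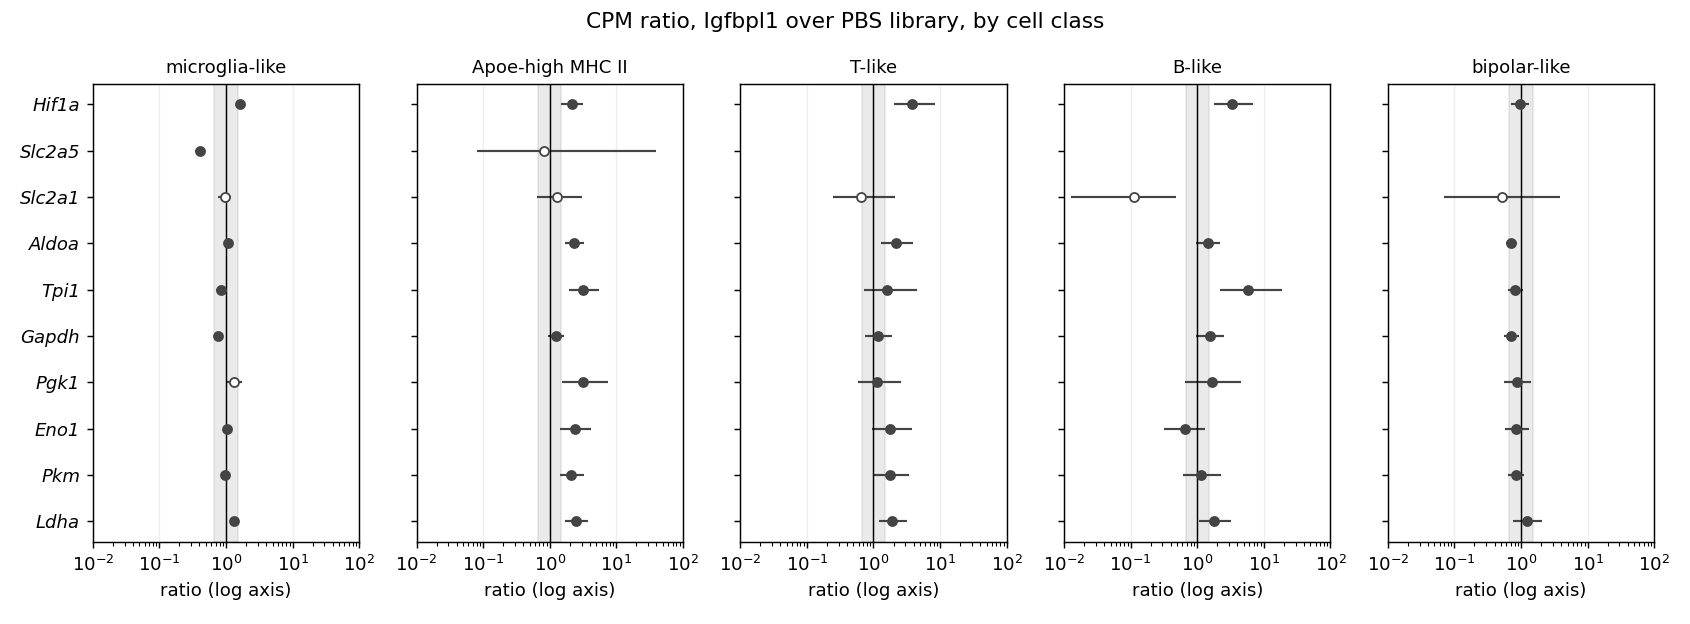
Ratio of the CPM of each gene (y axis), Igfbpl1 over PBS library (x axes, log scale), in 5 cell classes, with bars for exact 95% intervals, filled points for measured genes, open points for genes below the limit and grey bands for less than 1.5-fold; genes with 0 UMIs in a library have no point. In Apoe-high MHC class II cells 7 genes lie right of the band, and Slc2a5 lies left of it in microglia-like cells at 0.409.

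Other genes around the pathway in microglia-like cells were taken from a list of 81 by role, of which 23 were measured; 1 was higher and 1 lower, and the median log2 ratio was -0.03. Beside the 3.62% higher and 5.09% lower of all genes measured in these cells, these counts are not read as a result about the list. Of upper glycolysis 3 of 10 genes were measured and 0 differed: Hk2, a hexokinase, had a ratio of 0.805 (0.713 to 0.909), and Pfkfb3, which makes an activator of phosphofructokinase, 0.969 (0.875 to 1.07). Of lower glycolysis 2 of 10 were measured, the mutase Pgam1 at 1.35 (1.12 to 1.64) and Ldhb, the other main lactate dehydrogenase chain, at 1.02 (0.939 to 1.12). Among transporters 2 of 12 were measured. Slc16a7, the monocarboxylate transporter MCT2, was the gene lower, at 38.7 CPM in the Igfbpl1 and 66.0 CPM in the PBS library (ratio 0.585, 0.469 to 0.729). Among Y-only cells, under median ratio scaling and after thinning no gene of the list was 1.5-fold lower. Bsg, the chaperone of other monocarboxylate transporters, was at 304 and 327 CPM (0.93, 0.852 to 1.01). Khk, which phosphorylates the fructose that Slc2a5 carries in, missed the limit of 50 CPM, with 42.5 CPM in the Igfbpl1 and 57.0 CPM in the PBS library (0.746, 0.597 to 0.932), and is named after its values were seen.

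Of fructose and polyol genes 1 of 8 was measured, Akr1b3, aldose reductase, at 0.890 (0.729 to 1.09). Of the pentose phosphate pathway 4 of 7 were measured and 0 differed by the rule: Pgls at 163 CPM in the Igfbpl1 and 106 CPM in the PBS library (1.53, 1.33 to 1.76, and under 1.5-fold with 10 CPM added), Tkt at 0.773 (0.659 to 0.908) and Taldo1 at 1.09 (0.966 to 1.22). Of HIF control 1 of 8 was measured, the HIF-1 partner Arnt at 80.2 and 84.8 CPM in the Igfbpl1 and PBS libraries (0.945, 0.796 to 1.12). Of HIF targets 7 of 16 were measured and 1 was higher: Plin2, a coat protein of lipid droplets, at 87.4 CPM in the Igfbpl1 and 29.6 CPM in the PBS library (2.96, 2.33 to 3.80). The HIF targets P4ha1 (0.977, 0.867 to 1.10), Bnip3l (0.921, 0.789 to 1.08) and Pdk1 (0.746, 0.610 to 0.914) were within 1.5-fold. Bhlhe40, a transcription factor gene and HIF target, had 32.2 CPM (124 UMIs) in the Igfbpl1 and 6.60 CPM (19 UMIs) in the PBS library (4.87, 2.99 to 8.36), missed the limit of 50 CPM, and is likewise named after its values were seen. Ddit4, a HIF target of the list that also missed this limit, went the other way. It had 7.0 CPM (27 UMIs) in the Igfbpl1 and 14.95 CPM (43 UMIs) in the PBS library (0.469, 0.279 to 0.776). It too is named after its values were seen. Of pyruvate genes 3 of 10 were measured and 0 differed, among them the mitochondrial pyruvate carrier subunits Mpc1 (0.937, 0.839 to 1.05) and Mpc2 (1.19, 1.003 to 1.42).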

How the data were processed

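The authors deposited unnormalised whole-number UMI counts of each gene in each cell for 2 libraries of CD45+ retinal cells. The submitters' processing notes name Cell Ranger 3.1 and mm10. The cell filter of the authors is not stated. No cell was removed, the lowest total being 1001 UMIs. A gene listed in 1 library only was given no ratio.

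Cells were placed in a class by at least 3 marker UMIs from at least 2 markers. The T, NK, B, plasmacytoid or migratory dendritic, or retinal class with most UMIs came first, if it had at least as many as microglia markers. MHC class II UMIs were not compared with these classes, so a T-like cell could hold more of them than T markers. Other cells were microglia-like if those markers had at least as many UMIs as MHC class II genes. The rest with MHC class II UMIs were split at 2 Apoe UMIs per 1000. The immune classes number 8 (microglia-like, Apoe-high and Apoe-low MHC class II, migratory and plasmacytoid dendritic-like, T-like, NK-like and B-like) and 4 are retinal. Scrublet called 62 cells of the Igfbpl1 and 6 of the PBS library as doublets, which were kept and left out in an alternative. Counts were summed by class and library and scaled to CPM of the class total. Exact 95% intervals (scipy 1.17.1) were Poisson for levels, Clopper-Pearson for shares and conditional binomial for ratios. They cover counting error only, and a count of 0 is given the limit of 3 counts. The intervals were tested on sums simulated with Poisson error, which is the error they assume. Clumping of UMIs in single cells was not simulated. Python 3.11.15, scanpy 1.11.5 and matplotlib 3.10.9 were used.

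The genes, the list of 81 pathway genes and the marker lists were chosen with earlier results of these data known. Named were all 10 genes, at most the 2 most abundant and the 2 of largest ratio of each role in the list, and the 3 genes most like Slc2a5, Slc2a1, Hif1a and the enzyme mean. Alternatives changed the cells, scaling, depth, class naming (Leiden clusters of both libraries), minimum level and added CPM. The subsets of T-like, B-like and Apoe-high cells were chosen after the data were seen.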

Additional observations from a re-analysis of the deposited data

Results flagged for a closer look

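Tpi1 and Aldoa were flagged by a rule applied to each of the genes described here. Their ratios of Igfbpl1 over PBS pointed in opposite directions in different cell classes, with counting intervals on opposite sides of 1. The share of all genes that do so was not counted, so this is not read as particular to Tpi1 and Aldoa. For Tpi1 the ratio was 0.828 in microglia-like cells, 3.14 in Apoe-high MHC class II cells and 5.72 in B-like cells, the last from 30 UMIs in the Igfbpl1 and 5 UMIs in the PBS library. Of those 30 UMIs, 9 came from 1 cell. Among Xist-only microglia-like cells the direction of Tpi1 turned, at a ratio of 1.27 (0.898 to 1.82). In B-like cells free of other markers its ratio was 1.79 (0.333 to 9.58), from 4 UMIs in each library, and it was not measured there. For Aldoa the ratio was 0.712 in bipolar-like cells, 2.35 in Apoe-high MHC class II cells and 2.18 in T-like cells. With 1 library a group the difference between classes was not tested.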

How the results depend on the processing

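No paired analysis was possible because each group was 1 library and the labels carry no replicate numbers. Under 13 alternatives in microglia-like cells the log2 ratio of Slc2a5 stayed between -1.29 (Xist-only) and -1.003 (Y-only cells) and that of Hif1a between 0.47 (Y-only) and 1.01 (Xist-only). With Y-only cells the genes higher numbered 0 and those lower 2, Slc2a5 and Gapdh; the other 12 alternatives gave 1 each way. Tpi1 ran between -0.50 (Y-only) and 0.30 (Xist-only). In the pathway list, genes higher numbered 2 with the stricter marker rule, median ratio scaling, totals without mitochondrial, ribosomal and heat shock genes or a minimum of 10 CPM, and genes lower numbered 3 in Xist-only cells and 0 in Y-only cells, under median ratio scaling and after thinning. Genes higher in activated than quiet PBS cells numbered 0 with states set without thinning. The log2 ratio of Slc2a5 in activated cells was -1.77 in Xist-only cells, and that of Hif1a in quiet cells 1.12 in Xist-only cells. In B-like cells the genes higher numbered 1 with Leiden clusters, 2 after thinning and 1 in cells free of other markers, and in bipolar-like cells 1 after thinning. The causes were not tested. Of 89 recomputed counts and values of the comparisons, 72 stayed within 1.5 times or within the counting interval. Single-gene ratios stayed within the counting interval in 121 of 130 cases. A reversal was defined only for ratios past 1.5-fold, those of Slc2a5 and Hif1a, and none of these reversed. Counts and levels could not be labelled as reversed. Depth limits PBS classes of few cells: 31 T-like and 56 Apoe-high MHC class II cells.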
